A study of Homo sapiens with 6 samples.

Results

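The genes described here are the Wnt ligands, their receptors, the secreted and intracellular inhibitors of the pathway, and its nuclear effectors. They were chosen by name, as a list of 54 gene symbols, and all 54 matched a row among the 58051 gene rows of the count table. The list holds 19 ligands, 12 receptors, 9 secreted inhibitors, 9 intracellular and membrane inhibitors and 5 nuclear effectors. Their RNA was counted in A375, an established human melanoma cell line with an activating BRAF mutation. All cells were starved of serum for 2 h. One group of 3 libraries then received 10 ng/mL of human recombinant TGFB1, the founding ligand of the TGF-beta family, for 2 h. The other 3 libraries, called Vehicle, received 4 mM HCl with 1 mg/mL BSA for the same time. The design text calls the replicates technical, so every p-value measures the spread between these libraries and not between independent cultures.

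Wnt proteins are secreted lipid-modified ligands that bind Frizzled receptors together with the co-receptors LRP5 and LRP6. In the canonical branch this stops the AXIN and APC complex from marking beta-catenin for destruction, and beta-catenin then acts with TCF/LEF proteins at target genes. Other ligands, WNT5A among them, act mainly without beta-catenin and are known in melanoma for their link to motility and to a dedifferentiated state. The DKK proteins block the LRP co-receptors, the SFRP proteins bind Wnts outside the cell, and DACT, AXIN and NKD proteins act inside it. RNF43 and ZNRF3 are membrane ubiquitin ligases that remove Frizzleds from the surface.

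Library totals ran from 24713894 to 34895075 counts. No library was a copy of another: chi-square per gene between replicates was 5.07 to 25.6, where counting noise alone gives about 1. The TGFB1 libraries differed from each other by 5.07 to 8.92, less than any of them did from a Vehicle library. The Vehicle libraries were spread more widely and did not form a group apart on this measure. Vehicle replicate 1 differed from Vehicle replicate 2 by 12.5 and from Vehicle replicate 3 by 25.6. Vehicle replicate 3 differed from Vehicle replicate 2 by 11.4, and from TGFB1 replicates 1, 2 and 3 by 11.1, 14.5 and 12. Without Vehicle replicate 1, 2 Wnt genes were called higher and 3 lower, in place of 2 and 4, FZD7 being the one lost. Without Vehicle replicate 3 the counts were again 2 and 4. Of 12 melanocyte and melanoma markers, 6 had at least 10 counts in every library, among them MITF, PAX3, S100B and DCT. TYR had 0 to 5 counts, and SOX10 was listed at 0 in all 6 libraries. Whether that 0 comes from the cells, the counting or the annotation was not tested. The summed level of these 12 markers was 142.8 to 156.8 CPM (read counts divided by the library total, with TMM factors, on a common scale) in Vehicle and 131.6 to 136.6 CPM with TGFB1, and 1 of them, MITF, passed the test, lower with TGFB1. Of the 22 fibroblast, epithelial, endothelial and leukocyte markers 8 had at least 10 counts in every library, and 0 passed the test in either direction. The fibroblast markers summed to 19.1 to 22.7 CPM in Vehicle and 16.9 to 17.8 CPM with TGFB1, and their part in any result was not tested. In bulk RNA, fewer cells expressing a gene and less of its RNA per cell cannot be told apart.

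TGFB1 was followed within 2 h by a rise of 1 Wnt ligand gene, WNT9A, and of 1 inhibitor gene, DACT1, and by a fall of the secreted inhibitor gene DKK1 and of 3 Frizzled receptor genes, FZD4, FZD7 and FZD8. WNT9A rose 4.23-fold and DACT1 3.22-fold, while DKK1 fell to 0.535 of its Vehicle level. The Frizzled genes fell to between 0.784 and 0.852 of theirs. Of the 54 genes, 32 had enough counts to be tested. Of these, 2 were higher and 4 lower at an adjusted p under 0.05, or 6.25% and 12.5%. Among all 16690 genes tested, 405 were higher (2.43%) and 148 lower (0.887%). For 13 of the 32 (40.6%) every TGFB1 library lay outside the Vehicle range on the same side, against 16.4% of all genes tested. The list was drawn up with earlier results of these data known, so these shares are not independent evidence. The median log2 fold change was -0.000376 for the 32 genes and -0.00674 for all genes tested.

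**Figure D1:**
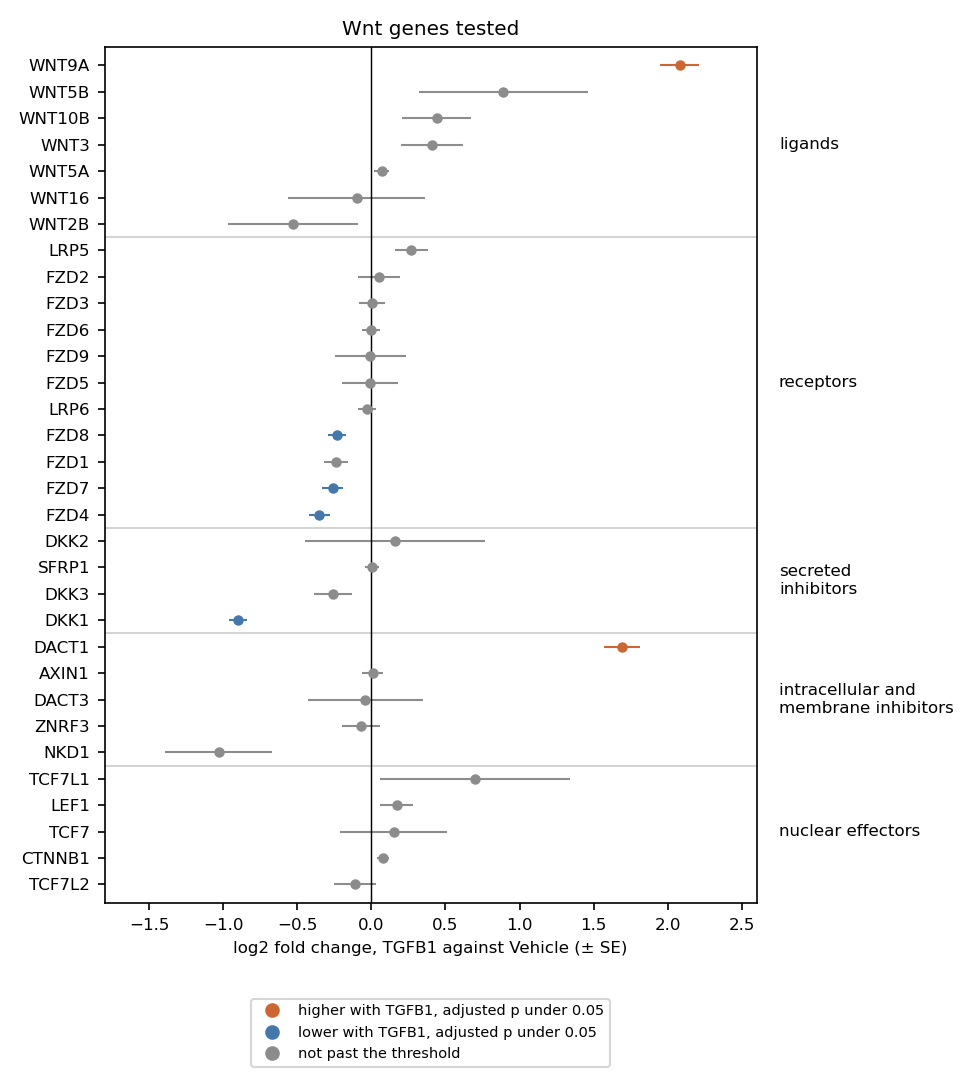
The log2 fold change of each of the 32 tested Wnt genes (x axis, with SE) by role, coloured by whether the adjusted p was under 0.05. WNT9A (2.08) and DACT1 (1.69) stand far to the right, DKK1 (-0.90) and FZD4, FZD7 and FZD8 (-0.35 to -0.23) lie to the left, and the other 26 genes did not pass.

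For the 3 genes with the largest changes among those that passed, WNT9A, DACT1 and DKK1, the bases before their transcription starts are printed. Each sequence is the 250 bases before a start listed by RefSeq (GRCh38.p14), written 5′ to 3′ in the direction of transcription. RefSeq lists 3 starts for DACT1, and counts per gene do not show which of them was used. Capitals mark matches on either strand to 3 motifs: the SMAD box CAGAC, the TCF/LEF motif CTTTGNT and the AP-1 motif TGANTCA.
WNT9A, chr1:227947933-227948182, minus strand: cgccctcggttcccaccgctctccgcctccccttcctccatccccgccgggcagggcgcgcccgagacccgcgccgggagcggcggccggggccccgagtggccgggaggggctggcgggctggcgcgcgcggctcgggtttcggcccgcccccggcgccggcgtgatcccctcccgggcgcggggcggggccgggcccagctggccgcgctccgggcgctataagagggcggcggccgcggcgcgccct
DKK1, chr10:52314031-52314280, plus strand: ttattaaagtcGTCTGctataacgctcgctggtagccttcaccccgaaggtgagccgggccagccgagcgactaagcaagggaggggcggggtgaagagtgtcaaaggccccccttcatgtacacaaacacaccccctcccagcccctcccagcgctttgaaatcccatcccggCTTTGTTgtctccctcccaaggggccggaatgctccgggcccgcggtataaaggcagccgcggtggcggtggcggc
DACT1, chr14:58633811-58634060, plus strand: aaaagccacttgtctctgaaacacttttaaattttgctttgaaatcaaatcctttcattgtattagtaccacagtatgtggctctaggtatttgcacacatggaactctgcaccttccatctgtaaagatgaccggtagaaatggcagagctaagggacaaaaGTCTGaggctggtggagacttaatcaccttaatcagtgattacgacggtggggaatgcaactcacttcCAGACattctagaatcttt
DACT1, chr14:58637712-58637961, plus strand: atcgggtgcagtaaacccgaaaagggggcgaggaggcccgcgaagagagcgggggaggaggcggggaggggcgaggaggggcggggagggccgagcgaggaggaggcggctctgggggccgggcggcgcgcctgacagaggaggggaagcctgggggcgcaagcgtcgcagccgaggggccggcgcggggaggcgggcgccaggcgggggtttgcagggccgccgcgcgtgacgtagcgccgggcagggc
DACT1, chr14:58638587-58638836, plus strand: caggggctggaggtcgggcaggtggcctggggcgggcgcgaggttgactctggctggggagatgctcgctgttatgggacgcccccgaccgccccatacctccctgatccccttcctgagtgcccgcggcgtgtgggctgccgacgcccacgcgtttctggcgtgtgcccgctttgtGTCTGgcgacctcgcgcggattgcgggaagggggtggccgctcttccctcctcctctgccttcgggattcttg

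The WNT9A window held none of the 3 motifs and was 84.4% G or C. The DKK1 window held 1 SMAD box, 239 to 235 bases before the start, and 1 TCF/LEF motif, CTTTGTT, 76 to 70 bases before it. Of the DACT1 windows, that of the most upstream start held 2 SMAD boxes, at 87 to 83 and 19 to 15 bases before it. The middle window held 0 and that of the most downstream start held 1, at 73 to 69 bases. None of the marked matches overlapped another. Among 35097 such windows of 27305 genes, 38.0% held a SMAD box, 13.2% a TCF/LEF motif and 6.57% an AP-1 motif. The windows of FZD4 and FZD8 held no match to any of the 3. These are matches of letters in short windows, and no binding was measured. Promoter sequences were matched for 38 of the 54 genes.

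WNT9A, on chromosome 1 at 227918656 to 227947898 (minus strand, GRCh38), encodes a Wnt ligand known from joint and blood stem cell development. Its counts were 90, 126 and 166 in Vehicle replicates 1, 2 and 3 and 618, 552 and 617 in TGFB1 replicates 1, 2 and 3. Scaled for depth these were 3.68, 4.14 and 4.77 CPM in Vehicle and 18.8, 15.9 and 19.0 CPM with TGFB1. Every TGFB1 library was thus more than 3 times the highest Vehicle library. The means were 4.20 ± 0.546 and 17.9 ± 1.70 CPM (SD, n = 3 each). The fitted log2 fold change was 2.08 ± 0.13 (SE) with an adjusted p of 6.58e-14. Across the 14 alternative settings the log2 fold change lay between 2.00 and 2.19 and passed in every one.

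**Figure D2:**
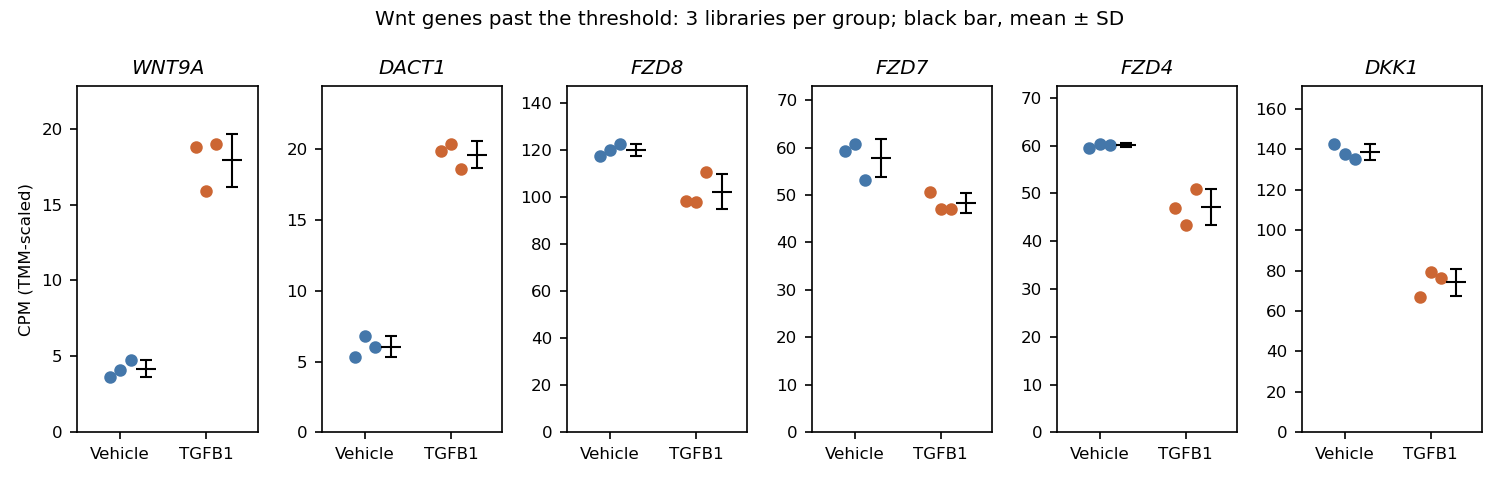
CPM (y axes, from 0) in each of the 3 Vehicle and 3 TGFB1 libraries for the 6 Wnt genes past the threshold, with the mean and SD as black bars. In all 6 genes the libraries of the groups do not overlap. They were picked by the test on the same libraries, so this is no further evidence. The fold change from the fit is furthest from 1 for WNT9A and DACT1, at 4.23 and 3.22.

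The other ligands did not pass the test. WNT5A was by far the most abundant ligand RNA, with 2294, 2910 and 3276 counts in Vehicle and 3299, 3391 and 3250 with TGFB1. In CPM its Vehicle libraries were at 93.8, 95.6 and 94.1 and its TGFB1 libraries at 100.4, 97.9 and 99.8. These do not overlap, but the log2 fold change was 0.07 ± 0.05 (SE, adjusted p = 0.656). WNT10B, a ligand of the canonical branch, had 1.80, 2.83 and 3.48 CPM in Vehicle and 3.5, 4.53 and 3.10 CPM with TGFB1, which overlap (log2 fold change 0.44 ± 0.23 SE, adjusted p = 0.445). WNT3, also canonical, went from 2.90 ± 0.524 to 3.83 ± 0.600 CPM (SD, n = 3 each; adjusted p = 0.448). The other tested ligands, WNT2B, WNT5B and WNT16, had 4 to 43 counts in every library. Their log2 fold changes were -0.53, 0.89 and -0.10 (adjusted p = 0.71, 0.595 and 0.97). The WNT5B libraries did not overlap, those with TGFB1 being higher. The SEs of these 3 genes, 0.44 to 0.57 on the log2 scale, leave changes of that size undetectable at this depth. Of the exonic bases of WNT2B, 21.2% lie under exons of ST7L on the other strand. ST7L was at 12.4 in Vehicle and 10.3 CPM with TGFB1, and whether the WNT2B counts include its reads was not tested.

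The remaining 12 ligand genes had too few counts to be tested. WNT1 and WNT8A were at 0 counts in all 6 libraries, which allows up to 3 counts, or 0.0860 to 0.121 CPM by library. That limit covers counting error alone and holds only if the counting could assign reads to these genes, which was not tested. WNT2, WNT3A, WNT6, WNT7A, WNT7B, WNT8B, WNT9B, WNT10A and WNT11 had 0 to 8 counts per library. WNT4 had 2 to 12 counts in Vehicle and 22, 4 and 3 in TGFB1 replicates 1, 2 and 3.

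To compare genes with each other, counts were divided by exon length and scaled to the same total in every library (TPM). On this scale the 19 ligands summed to 52.6 ± 3.34 TPM in Vehicle and 68.6 ± 4.04 TPM with TGFB1 (SD, n = 3 each), with ranges of 48.7 to 54.9 and 64.2 to 72.1. WNT5A, at 41.5 ± 2.46 TPM in Vehicle, made up 79.0% ± 0.717 of the ligand total there and 64.0% ± 0.995 with TGFB1. WNT9A made up 6.53% ± 0.858 in Vehicle and 21.4% ± 1.46 with TGFB1. In Vehicle, WNT9A (3.45 ± 0.636 TPM), WNT10B (3.38 ± 1.22) and WNT3 (2.16 ± 0.319) followed WNT5A, and the first pair did not differ beyond their spread. With TGFB1, WNT9A was at 14.7 ± 1.80 TPM and WNT10B at 4.6 ± 0.803, and their libraries did not overlap.

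Ligand genes lie near each other in 4 pairs, which were read together because the partners were seldom both detected. WNT9A and WNT3A lie 59152 bases apart on opposite strands of chromosome 1, with 2 other genes between them. WNT3A had 0 counts in 5 libraries and 4 in TGFB1 replicate 1, in cells where WNT9A rose to over 500 counts per library. WNT3 and WNT9B lie on opposite strands of chromosome 17, 46 bases apart. WNT3 had 78 to 139 counts per library, and WNT9B had 1 count in Vehicle replicate 1 and 0 in the others. WNT10B, with 44 to 157 counts, lies 6689 bases from WNT1 on chromosome 12, which had 0. WNT6 and WNT10A, 6129 bases apart on chromosome 2, were both under 10 counts in every library.

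**Figure D3:**
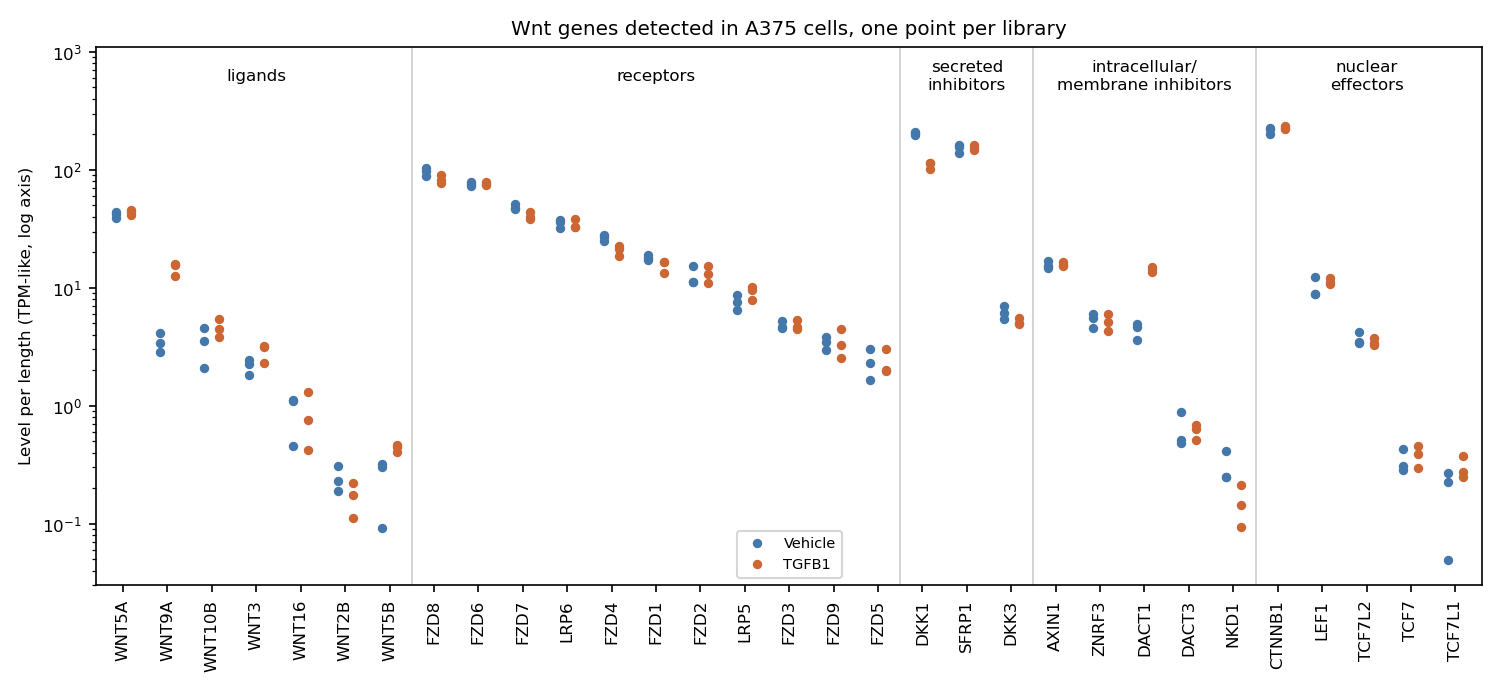
The level per length (TPM, log axis) of the 31 Wnt genes with at least 10 counts in all 3 libraries of a group, by role and ordered by the Vehicle mean, with 1 point per library. CTNNB1, DKK1 and SFRP1 lie above 100 TPM, WNT5A is the highest ligand, and the TGFB1 points of WNT9A and DACT1 lie well above their Vehicle points.

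Of the 12 receptor genes 11 were tested. With TGFB1, 3 were lower (27.3%) and 0 higher, beside 0.887% lower and 2.43% higher of all genes tested. FZD8, whose gene lies on chromosome 10 at 35638249 to 35642278, was the highest receptor per length, at 97.0 ± 7.54 TPM in Vehicle (SD, n = 3). It was at 117.5, 120.2 and 122.8 CPM in Vehicle replicates 1, 2 and 3 and at 98.5, 98.0 and 110.9 CPM with TGFB1. Its TGFB1 libraries all lay below its Vehicle libraries, replicate 3 the closest to them (log2 fold change -0.23 ± 0.06 SE, adjusted p = 0.0119). The call was lost without Vehicle replicate 2 (adjusted p = 0.0651), TGFB1 replicate 1 (0.15) or TGFB1 replicate 2 (0.0991), and over the other 11 settings it held.

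FZD4, on chromosome 11 at 86945679 to 86955391, encodes a Frizzled that also binds the non-Wnt ligand norrin in retinal vessels. Its Vehicle libraries were nearly equal, at 59.6, 60.4 and 60.2 CPM, and its TGFB1 libraries were at 47.0, 43.4 and 50.9 CPM. The fall was -0.35 ± 0.07 on the log2 scale (SE, adjusted p = 0.000674) and passed in all 14 alternative settings, with log2 fold changes of -0.41 to -0.29. Of its exonic bases 18.9% lie under exons of PRSS23 on the other strand, which was at 651.1 in Vehicle and 628.4 CPM with TGFB1 (log2 fold change -0.05, adjusted p = 0.739). The strand setting of the counting is not given in the sources used here, so reads from that stretch cannot be assigned with certainty.

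FZD7, a Frizzled gene on chromosome 2 (202034587 to 202038445), was at 59.3, 60.8 and 53.2 CPM in Vehicle and 50.7, 47.1 and 47.0 CPM with TGFB1. Vehicle replicate 3 lay nearest to the TGFB1 libraries (log2 fold change -0.26 ± 0.07 SE, adjusted p = 0.0221). The call was lost without Vehicle replicate 1 (adjusted p = 0.0858) or 2 (0.202) and without TGFB1 replicate 2 (0.109) or 3 (0.142). FZD1 gave values of the same size, 38.8 ± 0.721 CPM in Vehicle and 32.8 ± 2.98 CPM with TGFB1 (SD, n = 3 each). Its libraries did not overlap either, but it did not pass (log2 fold change -0.24 ± 0.08 SE, adjusted p = 0.0978). Whether the 4 Frizzled genes differ from one another in their response was not tested.

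FZD6, the next highest receptor at 75.8 ± 2.87 TPM, was at 104.3, 90.3 and 90.8 CPM in Vehicle and 94.6, 96.8 and 92.6 CPM with TGFB1. The groups overlap, and the high Vehicle value came from replicate 1 (log2 fold change -0.00485 ± 0.06 SE, adjusted p = 0.99). The co-receptor gene LRP6 averaged 111.6 ± 5.98 CPM without and 109.7 ± 6.32 CPM with TGFB1 (adjusted p = 0.924). LRP5, the related co-receptor gene, was at 14.4 ± 1.31 and 17.4 ± 1.77 CPM, and its adjusted p of 0.249 did not pass. FZD2, FZD3, FZD5 and FZD9 had log2 fold changes between -0.01 and 0.05, and FZD10 was at 0 counts in all libraries. Summed over the 10 Frizzled genes, the level per length was 289.0 ± 12.1 TPM in Vehicle (276.7 to 301.0) and 259.9 ± 15.1 TPM with TGFB1 (242.5 to 269.3; SD, n = 3 each).

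DKK1, on chromosome 10 at 52314296 to 52318042, encodes the secreted protein that keeps LRP5 and LRP6 from joining a Wnt and Frizzled complex. It had 3487, 4193 and 4707 counts in Vehicle and 2192, 2741 and 2492 with TGFB1. In CPM the Vehicle libraries were at 142.7, 137.8 and 135.2 and the TGFB1 libraries at 66.7, 79.2 and 76.5. All TGFB1 libraries were well below all Vehicle libraries, TGFB1 replicate 1 lowest. The log2 fold change was -0.90 ± 0.06 (SE, adjusted p = 2.30e-13), and it lay between -0.95 and -0.83 and passed in all 14 alternative settings. DKK1 shares 9.61% of its exonic bases with PRKG1-AS1 on the other strand, which was at 0.690 in Vehicle and 0.426 CPM with TGFB1.

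SFRP1, which encodes a secreted Wnt-binding protein and ranked next to DKK1 per length (152.8 ± 11.8 TPM in Vehicle against 203.8 ± 5.98 for DKK1), did not pass the test. Its Vehicle libraries were at 218.2, 225.6 and 227.4 CPM and its TGFB1 libraries at 227.9, 223.4 and 222.2 CPM. The log2 fold change was 0.00465 ± 0.05 (SE, adjusted p = 0.987). With TGFB1 the order was turned, with DKK1 at 109.5 ± 6.55 TPM and SFRP1 at 154.0 ± 6.72 TPM. DKK3, a divergent relative of DKK1, was at 9.04, 9.49 and 10.3 CPM in Vehicle and 7.55, 8.90 and 7.59 CPM with TGFB1, which do not overlap (log2 fold change -0.26 ± 0.13 SE, adjusted p = 0.413). DKK2 had 3 to 25 counts per library and did not pass, and DKK4, SFRP2, SFRP4, SFRP5 and FRZB had 0 to 12 counts and were not tested. The 9 secreted inhibitors summed to 363.5 ± 18.9 TPM in Vehicle and 269.4 ± 1.81 TPM with TGFB1, and DKK1 made up 56.1% ± 1.29 and 40.7% ± 2.38 of that sum (SD, n = 3 each).

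DACT1, on chromosome 14 at 58633967 to 58648321 (plus strand), encodes a scaffold that binds Dishevelled. It had 130, 208 and 211 counts in Vehicle and 654, 706 and 607 with TGFB1, or 5.32, 6.83 and 6.06 CPM against 19.9, 20.4 and 18.6 CPM. The libraries within each group lie close together and the groups far apart. The log2 fold change was 1.69 ± 0.12 (SE, adjusted p = 9.11e-13), with a range of 1.61 to 1.78 over the 14 alternative settings, all past the threshold. Of its exonic bases 8.42% are shared with LINC01500 on the same strand, whose mean was 0.0751 CPM in Vehicle and 0 with TGFB1. Its paralog genes gave no call: DACT3 was at 1.05 ± 0.438 in Vehicle and 1.01 ± 0.165 CPM with TGFB1 (adjusted p = 0.989), and DACT2 had 0 to 1 counts per library.

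AXIN1, the scaffold of the destruction complex, was the highest of the intracellular and membrane inhibitors per length, at 15.6 ± 1.21 TPM in Vehicle. It was at 35.9, 34.7 and 37.1 CPM in Vehicle and 34.7, 36.0 and 37.9 CPM with TGFB1 (log2 fold change 0.01 ± 0.07 SE, adjusted p = 0.979). In Vehicle, DACT1 (4.41 ± 0.706 TPM) lay far below AXIN1. With TGFB1, DACT1 was at 15, 14.3 and 13.6 TPM and AXIN1 at 15.6, 15.2 and 16.5 TPM, so the DACT1 libraries came within 2 TPM of the lowest AXIN1 library while not overlapping it. ZNRF3 was at 12.6, 9.76 and 12.2 CPM in Vehicle and 12.5, 9.47 and 11.0 CPM with TGFB1, which overlap (adjusted p = 0.907).

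Several inhibitor genes are also textbook transcriptional targets of beta-catenin and TCF: AXIN2, NKD1, RNF43, ZNRF3 and DKK1. NKD1 had 35, 40 and 73 counts in Vehicle and 36, 18 and 25 with TGFB1, or 1.43, 1.31 and 2.1 CPM against 1.10, 0.520 and 0.768 CPM. Its libraries do not overlap, but with so few reads the log2 fold change of -1.03 ± 0.36 (SE) did not pass (adjusted p = 0.149). AXIN2 had 5, 4 and 13 counts in Vehicle and 12, 3 and 2 with TGFB1, and RNF43 had 6, 10 and 9 against 3, 6 and 3, too few to test either. In GENCODE 29, 25.2% of the exonic bases of AXIN2 are shared with a same-strand gene, AC004805.1, which was at 0 CPM in both groups. Of those of RNF43, 20.3% lie under an antisense gene and 57.6% are shared with a same-strand gene that was not among the counted genes. Whether overlaps left either count incomplete was not tested. NKD2 had 2 to 10 counts.

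None of the 5 nuclear effector genes passed the test. CTNNB1, the beta-catenin gene, had the highest level per length of all 54 genes in Vehicle (216.1 ± 11.5 TPM). It was at 793.4, 800.4 and 786.8 CPM in Vehicle and 836.5, 843.8 and 829.0 CPM with TGFB1, which do not overlap, but the log2 fold change was 0.08 ± 0.04 (SE, adjusted p = 0.519). LEF1 was the most abundant of the TCF/LEF transcription factor genes, at 10.1 ± 1.99 TPM in Vehicle. Its CPM values were 15.6, 14.6 and 19.4 in Vehicle and 19.1, 19.0 and 17.8 with TGFB1, with Vehicle replicate 3 above every TGFB1 library and the other Vehicle libraries below (log2 fold change 0.17 ± 0.11 SE, adjusted p = 0.583). TCF7L2 was at 7.57, 8.77 and 6.89 CPM in Vehicle and 7.52, 7.25 and 6.76 CPM with TGFB1, which overlap (adjusted p = 0.849). TCF7 averaged 1.05 and 1.18 CPM in the respective groups and TCF7L1 0.246 and 0.401 CPM (adjusted p = 0.926 and 0.743). Of the exonic bases of TCF7, 2.09% lie under exons of SKP1 on the other strand. SKP1 was at 188.5 in Vehicle and 185.7 CPM with TGFB1, and whether the TCF7 counts include its reads was not tested.

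The rest of the pathway was read from 7 lists of other genes, with 122 genes in the table. Of the 97 tested, 10 were higher and 3 lower (10.3% and 3.09%), against 2.43% and 0.887% of all genes. Most of them, 7 higher and 2 lower, belong to the list of genes known to follow beta-catenin and TCF, so these shares do not describe the other lists. The median log2 fold change of the 97 was 0.02. All 25 genes of the Dishevelled and destruction complex list were tested and 0 passed, with log2 fold changes from -0.20 to 0.23 and 2 at an unadjusted p under 0.05. DVL1, which encodes a Dishevelled protein that DACT1 can bind, was at 73.4 ± 2.13 in Vehicle and 80.0 ± 7.24 CPM with TGFB1 (adjusted p = 0.433). Of 6 tested genes for ligand processing and release 0 passed, and 2 had an unadjusted p under 0.05. WLS, which encodes the carrier that takes Wnts to the surface, was at 49.6 ± 1.65 and 49.5 ± 4.83 CPM. Of the R-spondin and LGR genes, LGR4 was tested and did not pass (adjusted p = 0.152), and the other 6, all R-spondins included, had 0 to 10 counts per library.

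In 3 of the lists, 1 or 2 genes passed. The shares were 6.67% higher for other receptors and planar polarity, 11.1% higher and 11.1% lower for antagonists, and 5% higher for cofactors. Among all genes tested they were 2.43% higher and 0.887% lower. In lists this short 1 gene makes up such a share, and whether the shares differ from those of all genes was not tested. Among 15 tested genes of other receptors and planar polarity 1 was higher, DAAM1, which encodes a formin that binds Dishevelled. It rose from 11.5, 15.4 and 14.8 CPM in Vehicle to 21.3, 19.6 and 23.0 CPM with TGFB1 (log2 fold change 0.61 ± 0.11 SE, adjusted p = 0.000244). Among 9 tested antagonists outside the main list 1 was higher and 1 lower. CXXC5, whose protein binds Dishevelled, rose from 23.1 ± 1.56 to 45.2 ± 2.03 CPM, and SHISA2, which acts on the maturation of Frizzled and FGF receptors, fell from 218.4 ± 10.2 to 170.3 ± 6.24 CPM (SD, n = 3 each; adjusted p = 4.22e-11 and 7.80e-06). Of 20 beta-catenin cofactor genes 1 was higher, the Groucho family corepressor gene TLE3 (log2 fold change 0.47 ± 0.09 SE, adjusted p = 0.000363). All 4 of these genes had groups that did not overlap, but they were picked by the test on the same libraries, so this is no further evidence.

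Of 21 tested genes known to follow beta-catenin and TCF in some tissue, 7 were higher and 2 lower (33.3% and 9.52%), beside 2.43% and 0.887% of all genes, and 12 did not pass. This list, like the others, was chosen with earlier results of these data known, so its count is not independent evidence. The lower genes were POU3F2, a neural-type transcription factor gene active in invasive melanoma cells, and MITF, which is also one of the melanocyte markers above. The 4 with the smallest p were the T-box gene TBX3, the AP-1 gene JUN, the angiogenic factor gene VEGFA and the ephrin receptor gene EPHB3. Their log2 fold changes were 1.64, 1.26, 1.05 and 0.82. JUN, VEGFA and others on this list also respond to many other signals, so the list does not read beta-catenin activity alone. Textbook targets of the pathway were at very unlike depths. SP5 had 0 to 1 counts per library, LGR5 had 1 to 8, NOTUM 0 to 11 and AXIN2 2 to 13, while ZNRF3 had 297 to 424, TNFRSF19 1729 to 2292 and DKK1 2192 to 4707. Of these 7, chosen after their values were seen, DKK1 passed the test and ZNRF3 and TNFRSF19 did not. SP5, LGR5, NOTUM and AXIN2 had too few counts to be tested.

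**Figure D4:**
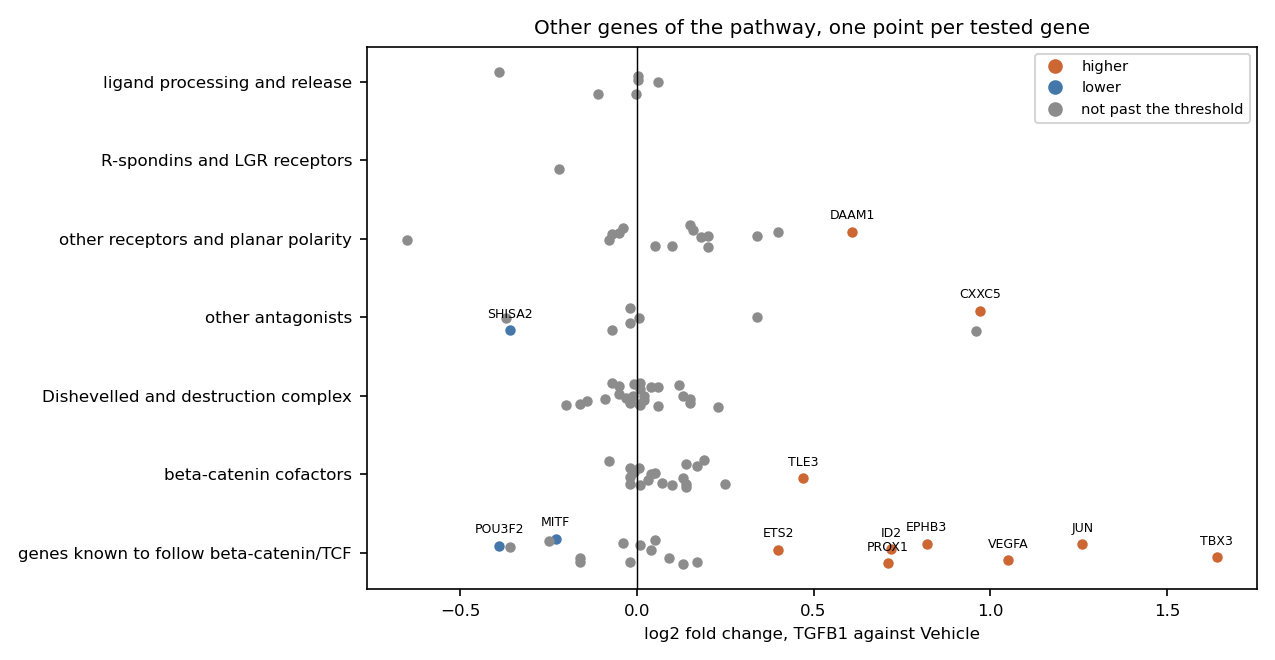
The log2 fold change (x axis) of each tested gene of the 7 other lists of the pathway, coloured by whether the adjusted p was under 0.05, with names at those that passed and small vertical offsets to separate points. The list of the Dishevelled and destruction complex lies between -0.20 and 0.23, and most of the genes that passed belong to the list of genes known to follow beta-catenin and TCF.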

How the data were processed

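RNA-seq counts came from 3 Vehicle and 3 TGFB1 libraries, grouped by their labels. The labels give the molecule as polyA RNA but describe rRNA depletion in the protocol. The authors deposited raw read counts per Ensembl gene ID. The submitters' processing notes list cutadapt, TopHat2 2.1, HTSeq and the GRCh38 build. Annotation release, counting mode and strandedness: not given in the sources used here. Symbols were matched by gene ID.

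Genes passing edgeR's filterByExpr (minimum count 10, minimum total 15) were scaled by TMM and tested with the edgeR 4.0.16 quasi-likelihood F-test (robust, group only; R 4.3.3), with Benjamini-Hochberg adjustment over all 16690 genes at 0.05. The SE is the log2 fold change's size over the square root of F. CPM used TMM-scaled library sizes. TPM used the union of GENCODE 29 exons, also the source of gene coordinates, and served for comparing genes.

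The members and gene lists were chosen with earlier results of these data known. Genes given in full are those past the threshold, the 3 highest per length of each role, and those with a log2 fold change of at least 0.5 in size at 1 CPM or more; from other lists, up to 4 past the threshold by smallest p. Alternatives were DESeq2 size factors, upper-quartile and total-count scaling, no low-count filter, at least 50 counts in 3 libraries, a replicate block, DESeq2 1.42.0, limma-voom (limma 3.58.1) and leaving out each library. Promoter windows were read from RefSeq (GRCh38.p14), without the 50 bases after the start.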

Additional observations from a re-analysis of the deposited data

How the results depend on the processing

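The 2 higher Wnt genes, WNT9A and DACT1, were called in all 14 alternatives, as were DKK1 and FZD4. The count of lower Wnt genes was 4 and ran from 2 to 4 when 1 library was left out (2 without Vehicle replicate 2 or TGFB1 replicate 2), as FZD7 and FZD8 lost their calls; in the other 8 alternatives it was 4. Over all genes, leaving out 1 library moved the higher count of 405 to between 264 (without TGFB1 replicate 1) and 683 (without Vehicle replicate 3), and the lower count of 148 to between 97 (without TGFB1 replicate 3) and 240 (without Vehicle replicate 3). The cause was not tested. Of 440 values of single Wnt genes under an alternative, 427 kept a call or, where there was none, moved by less than the SE, 7 lost the call and 6 uncalled values moved by more; 0 called values changed sign. The scalings shifted the median of all genes by -0.0141 to 0.00769 (log2). Same-numbered libraries did not deviate together (r = -0.0296, 0.0418 and 0.00761), so they share a number and no known pairing; with the replicate block the Wnt calls were again 2 higher and 4 lower, and those over all genes 448 and 153. The genes under 10 counts per library are limited by depth: their changes were not detectable.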
